A study of Bos taurus with 3 samples.

Results

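The cells described here are GJA1-positive cells of the cow rumen epithelium, split into an IGFBP5-high and a GSTA1-high side. A cell counted as GJA1-positive with at least 2 UMIs of GJA1 (a UMI, or unique molecular identifier, marks 1 captured transcript). IGFBP5-high cells had at least 3 UMIs of IGFBP5 and at most 7 of GSTA1. GSTA1-high cells had at least 8 UMIs of GSTA1 and at most 1 of IGFBP5. The cells were thus chosen by their measured values of GJA1, IGFBP5 and GSTA1, and these 3 genes were left out of every test. Of the 20728 cells of the series, 1302 were GJA1-positive, and of these 310 were IGFBP5-high and 236 GSTA1-high, which makes 546 cells compared. A further 472 were high for both genes (at least 3 UMIs of IGFBP5 and at least 8 of GSTA1), 193 for neither (at most 2 and at most 7) and 91 lay in between (2 UMIs of IGFBP5 and at least 8 of GSTA1).

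All cells came from the ventral rumen of 3 adult lactating Holstein dairy cows in a single condition, and 1 droplet library of 3′ transcript ends was made for each cow. The muscle layers were stripped, the tissue was digested with enzymes, and non-epithelial clusters were removed by the authors before deposit. No condition was compared in the study, so each cow gives 1 pair of sums, an IGFBP5-high and a GSTA1-high one. The p-values set the difference between the sides of a cow against its spread over 3 animals. That spread was drawn mostly from all genes together, with 2 residual degrees of freedom per gene against a median prior of 41.5. The wall of the rumen is lined by a stratified squamous epithelium: basal cells sit on a basement membrane and divide, and their progeny pass through spinous and granular layers to a cornified surface. GJA1 encodes connexin 43, which forms gap junctions, the channels that link neighbouring cells. IGFBP5 encodes a secreted protein that binds insulin-like growth factors, and GSTA1 a glutathione transferase, an enzyme that couples glutathione to reactive molecules.

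The 3 cows differed in how their GJA1-positive cells divided. IGFBP5-high cells numbered 166, 122 and 22 in cows 1, 2 and 3, which was 35.2%, 28.2% and 5.51% of the GJA1-positive cells of these cows, and GSTA1-high cells numbered 44, 78 and 114 in cows 1, 2 and 3, or 9.34%, 18.1% and 28.6%. Cow 3 thus held the fewest IGFBP5-high and the most GSTA1-high cells. GSTA1 was also higher throughout cow 3: over all cells of a library it had 1.88, 0.956 and 3.60 UMIs per 10000 in cows 1, 2 and 3, and in GSTA1-high cells 12.6, 11.9 and 34.9. In IGFBP5-high cells IGFBP5 had 5.95, 4.46 and 5.88 UMIs per 10000, against 0.284, 0.249 and 0.297 in GSTA1-high cells, values fixed by the choice of cells. GJA1 itself, on which both sides were chosen alike, had 5.67, 3.71 and 4.38 UMIs per 10000 in cows 1, 2 and 3 in IGFBP5-high and 6.50, 5.12 and 4.11 in GSTA1-high cells, ranges that overlapped.

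**Figure D1:**
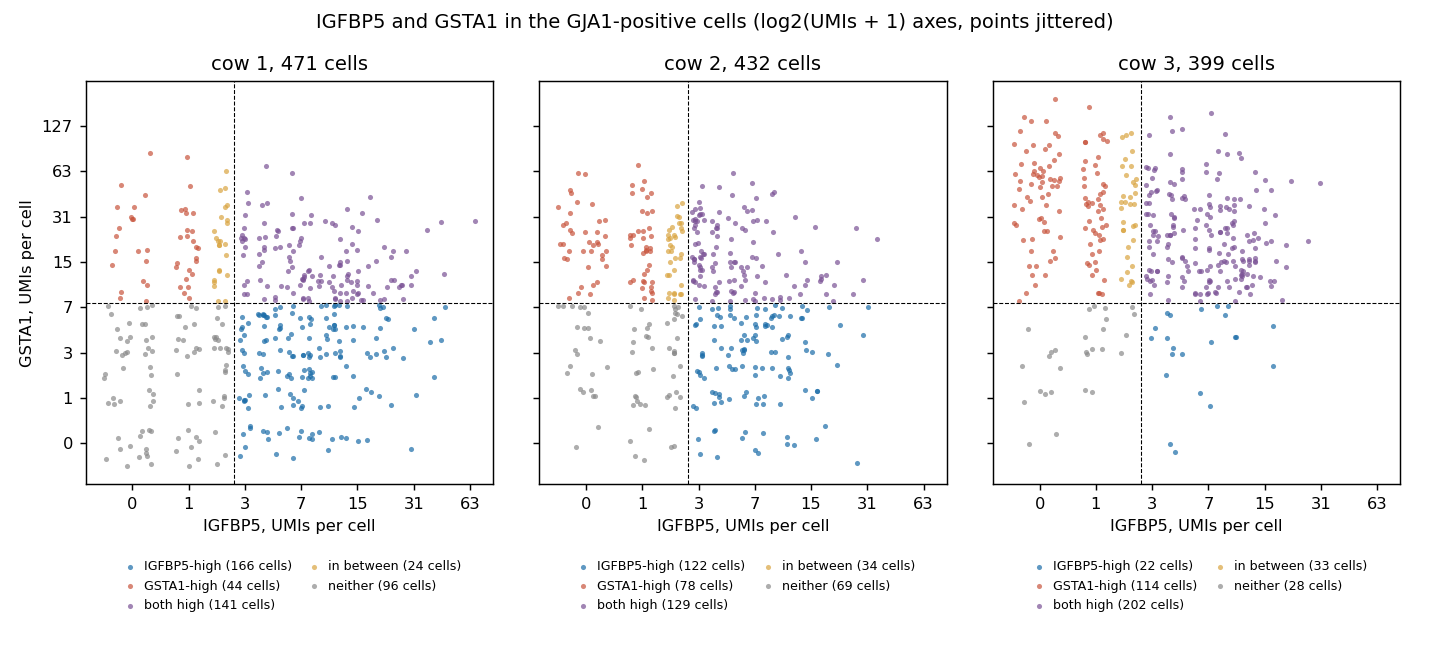
Each point is 1 GJA1-positive cell, placed by its UMIs of IGFBP5 (x axis) and of GSTA1 (y axis), both on log2(UMIs + 1) scales with jitter, in 1 panel per cow; the dashed lines stand below 3 UMIs of IGFBP5 and above 7 of GSTA1, and colours give the 5 classes. Cow 3 has 22 IGFBP5-high and 114 GSTA1-high cells, cow 1 has 166 and 44, and cells fill the space on both sides of each line.

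No gap in the counts marked the limits of the rule. Among cells with at most 7 UMIs of GSTA1, 39 had exactly 3 UMIs of IGFBP5 and were taken as IGFBP5-high, and 49 with 2 UMIs were not. At the GSTA1 limit, 29 IGFBP5-high cells had 7 UMIs of GSTA1, while 33 cells with 8 fell into the class high for both. On the other side, 7 GSTA1-high cells had exactly 8 UMIs of GSTA1, and 16 cells with 7 were left out. Of the GSTA1-high cells 112 held 1 UMI of IGFBP5, and the 91 cells in between held 2.

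Depth and quality were compared before the genes. The median depth of IGFBP5-high cells was 16792, 17727.5 and 9720.5 UMIs in cows 1, 2 and 3, and that of GSTA1-high cells 19206, 19394.5 and 13811 UMIs, lower on the IGFBP5-high side in each cow. The 6 sums held between 253552 UMIs (IGFBP5-high, cow 3) and 2813329 (IGFBP5-high, cow 1), so the former carries the least precise values. The median mitochondrial share of UMIs was 27.7, 16.5 and 18.6% in IGFBP5-high and 21.8, 14.1 and 13.5% in GSTA1-high cells of cows 1, 2 and 3. Cells with at least 3 UMIs over 20 genes of G2 phase and mitosis made up 31.3, 18.9 and 36.4% of the IGFBP5-high and 18.2, 12.8 and 14.9% of the GSTA1-high cells. Depth, mitochondrial share and dividing cells thus moved with the sides in all 3 cows. Markers of other tissues were scarce: 6 of 6 fibroblast markers had 0 UMIs in all sums, the smooth muscle list had UMIs only of DES (3 in all), and the immune, endothelial and neural lists stayed between 0 and 0.197 UMIs per 10000. Of the defining markers, CD2, CSF1R, CD79A, PECAM1 and CDH5 were at 0, PTPRC had 1 and 3 UMIs in the GSTA1-high cells of cows 2 and 3, and CD3D and CD3E had 0 to 7 UMIs in each sum. Over all libraries 35 barcodes occurred in more than 1 library (70 cells), 3 of these cells being on either side.

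Which genes differ between IGFBP5-high and GSTA1-high cells of the same cows was asked first. Of 6668 genes tested, 232 were higher in IGFBP5-high cells (3.48% of genes) and 254 were higher in GSTA1-high cells (3.81%), at an adjusted p under 0.05 by edgeR's quasi-likelihood test with the cow as a block and an absolute log2 fold change above 0.25. IGFBP5-high cells were richer in several genes of attachment to the basement membrane, in some of mitosis, and in the monocarboxylate transporter SLC16A1. GSTA1-high cells were richer in the keratins KRT6A and KRT17 of suprabasal or stressed epithelium and in the basal keratin KRT14. They were also richer in desmosomal genes, antimicrobial S100 proteins, metallothioneins and cholesterol synthesis enzymes. The direction was shared by all 3 cows for 216 of the 232 and 244 of the 254 genes. In CPM (UMIs of a gene scaled to the same total in each sum of cells) the 3 levels of one side lay wholly above those of the other for 139 and 137 of them, where 11.9% of all tested genes showed such separation. The median log2 fold change over all genes was -0.011. Without the cow in the model, 21 and 31 genes were called. That fit called 2 of 11 hemidesmosome genes, 3 of 4 metallothionein genes and 0 of the desmosome, secreted defence and mitosis lists. Without the 22 IGFBP5-high cells of cow 3, along with the rest of that cow, 178 and 208, of which 153 and 186 were among the 232 and 254.

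Several genes that anchor cells to the basement membrane were higher in IGFBP5-high cells. Of the 11 tested (17 measured) members of the hemidesmosome and basement membrane list 9 were called, with a median log2 fold change of 1.13. DST, 1 of the 9, had 75, 29 and 1 UMIs in cows 1, 2 and 3 in IGFBP5-high and 9, 9 and 5 in GSTA1-high cells. These sums did not all reach the filter limit, so the number is not read as a result on the list. LAMB3 (ENSBTAG00000016542), the beta 3 chain of laminin 332 in the basement membrane, had 103, 132 and 111 CPM in cows 1, 2 and 3 in IGFBP5-high and 8.28, 20.2 and 17.6 CPM in GSTA1-high cells. The levels did not overlap, and the mean of 115 ± 14.5 CPM stood against 15.3 ± 6.26 (SD, n = 3 cows; log2 fold change 2.87, SE 0.20, edgeR adjusted p = 3.0e-15). COL17A1 (ENSBTAG00000002430), the transmembrane collagen of hemidesmosomes, had 515, 493 and 382 CPM in cows 1, 2 and 3 against 167, 162 and 118 CPM (log2 fold change 1.64, SE 0.12, edgeR adjusted p = 6.9e-15). All 3 IGFBP5-high levels again lay above all 3 GSTA1-high ones. Of the integrin chains, those called moved the same way, with log2 fold changes of 1.13 for ITGA6, 2.08 for ITGA3 and 0.76 for ITGB4. So did PLEC (0.67), the linker to the keratin skeleton. Summed over the list, the level was 15.9, 13.4 and 13.8 UMIs per 10000 in cows 1, 2 and 3 in IGFBP5-high and 8.22, 6.84 and 6.46 in GSTA1-high cells. Without cow 1 or without cow 2, 7 members were called, of 10 and 11 tested. Among cells of 8000 to 20000 UMIs 4 of 11 were called, with a median log2 fold change of 1.17.

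The 7 genes fixed as basal cell markers were all called, a count to be read beside the 4 of them that the hemidesmosome list also holds. DST, 1 of these 4, had sums under the filter limit on both sides, so the number is not read as a result on the list. KRT15 (ENSBTAG00000004903), a keratin of basal cells, had 5950.0, 8454 and 6532 CPM in cows 1, 2 and 3 in IGFBP5-high and 2935, 2865 and 2793 CPM in GSTA1-high cells (log2 fold change 1.27, SE 0.096, edgeR adjusted p = 3.5e-14). IGFBP6 (ENSBTAG00000021467), a relative of IGFBP5 that binds IGF2, had 42.8, 44.7 and 159.6 CPM in cows 1, 2 and 3 against 7.10, 15.5 and 40.0 CPM, higher in each cow (log2 fold change 1.92, SE 0.21, edgeR adjusted p = 1.9e-09). TP63, the master transcription factor of stratified epithelia, had a log2 fold change of 0.76, and it was no longer called without cow 2 (0.61). KRT5, a keratin of the same layer outside the list, had 3719.8, 4857 and 6284 CPM against 3545, 4250.4 and 6747 CPM and was not called (log2 fold change 0.055, SE 0.09, edgeR adjusted p = 0.83), and KRT14, its partner, was higher in GSTA1-high cells (-0.88). The basal marker sum was 70.4, 86.6 and 79.2 UMIs per 10000 in cows 1, 2 and 3 in IGFBP5-high and 34.2, 30.9 and 31.5 in GSTA1-high cells. It is mostly KRT15, with 16672, 17599 and 1760 UMIs in IGFBP5-high cells, COL17A1 following with 1443, 1026 and 103. It leaves out KRT5 and KRT14. Whether the sides differ in the share of cells close to the basal layer or in the level within each cell cannot be told apart from sums.

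CCDC80 (ENSBTAG00000010793), a secreted matrix protein, had 534, 204 and 282 CPM in cows 1, 2 and 3 in IGFBP5-high and 169, 40.4 and 95.1 CPM in GSTA1-high cells, more in every cow (log2 fold change 1.83, SE 0.14, edgeR adjusted p = 2.4e-14). SERPINH1 (ENSBTAG00000001027), the chaperone of collagen folding, had 110.3, 85.0 and 174 CPM against 28.4, 22.9 and 57.0 CPM (log2 fold change 1.81, SE 0.17, edgeR adjusted p = 1.4e-11). Of the IGF list, 3 of 14 genes passed the filter on low counts, IGFBP3 only through the IGFBP5-high side, where it was high, so their number is not read as a result on the list. IGFBP3, another IGF-binding protein, had 42.5, 49.0 and 22.3 CPM against 5.91, 2.02 and 0 CPM, levels given as a description only. IGF2R, the receptor that clears IGF2, had 59.6, 42.3 and 33.4 CPM against 29.6, 30.3 and 29.1 CPM, close to the threshold (log2 fold change 0.64, SE 0.20, edgeR adjusted p = 0.037), and was not called in 13 of the 16 alternatives, among them without cow 1 (0.43) and without cow 2 (0.76), and was -0.026 in a further 1, with cells thinned to 5000 UMIs.

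**Figure D2:**
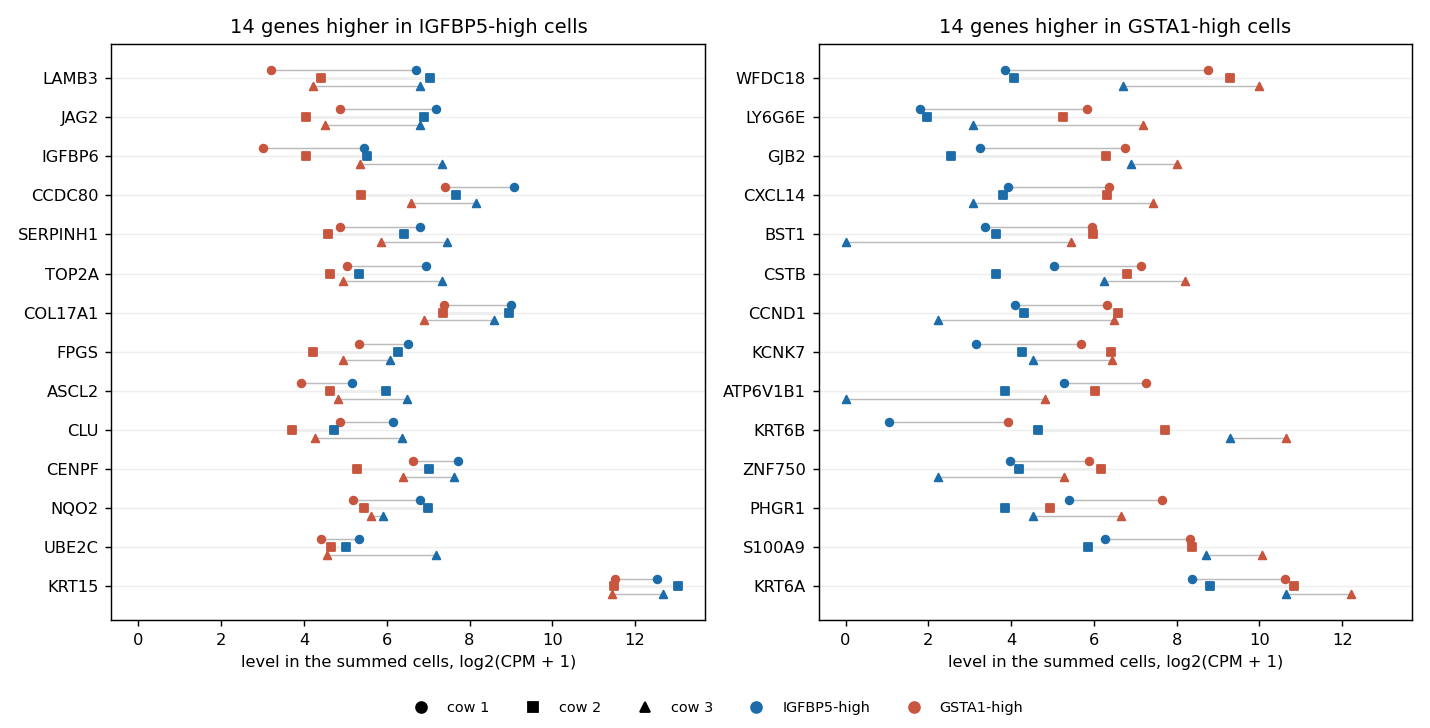
Levels of the 28 genes with the largest changes among called genes of at least 50 CPM on the higher side are given as log2(CPM + 1) on the x axis, with 1 marker shape per cow, blue for IGFBP5-high and red for GSTA1-high cells, and a grey line joining the sides of a cow. In the left panel every blue marker stands to the right of the red marker of its own cow, and in the right panel to the left; KRT6B differs more between cows 1 and 3 than within either cow.

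Genes of the Notch pathway, through which neighbouring cells signal by contact, were divided between the sides. JAG2 (ENSBTAG00000007319), a Notch ligand, had 145, 119 and 111 CPM in cows 1, 2 and 3 against 28.4, 15.5 and 21.8 CPM in GSTA1-high cells (log2 fold change 2.56, SE 0.18, edgeR adjusted p = 6.8e-15). DLL1, DLK2 and LFNG passed the filter on low counts through the IGFBP5-high side alone, so their levels are a description. The ligand DLL1 had 9.99, 19.2 and 11.1 CPM against 1.18, 4.04 and 6.06 CPM. DLK2, a non-canonical ligand that the granule cell list also holds, had 14.6, 36.5 and 29.7 CPM against 2.37, 5.38 and 0 CPM. LFNG, a sugar transferase that modifies Notch receptors, had 109 UMIs over the IGFBP5-high and 1 over the GSTA1-high cells, a ratio of 83.1 with a 95% exact interval of 14.6 to 3311 that covers counting error only. The receptor NOTCH3, whose IGFBP5-high sums were too low to pass the filter on their own and which is likewise a description, had 3.57, 5.76 and 11.1 CPM in IGFBP5-high and 33.1, 20.2 and 34.5 CPM in GSTA1-high cells. The target transcription factors HES1 and HES2 had log2 fold changes of -0.86 and -1.24. In all, 4 of 9 tested genes were called higher and 3 lower in IGFBP5-high cells, numbers that are not read as a result on the list because of these 4 low genes.

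Within the WNT and BMP list, 4 of 11 tested genes were higher in IGFBP5-high cells and 0 lower (edgeR; without cow 1, 4 and 1), numbers that are not read as a result on the list, since WNT10A and DKK3 passed the filter through the IGFBP5-high side alone. They were WNT10A, a WNT ligand of epithelia, with 23.2, 29.3 and 48.3 CPM against 4.73, 5.38 and 4.85 CPM, and BAMBI, a decoy receptor that dampens BMP and TGF-beta signals, with 28.6, 42.8 and 29.7 CPM against 8.28, 16.8 and 10.3 CPM. The others were DKK3 and SFRP1 (log2 fold change 0.54), both secreted and the latter a binder of WNT proteins. The levels of BAMBI did not overlap between the sides. ASCL2 (ENSBTAG00000026769), a transcription factor that WNT signals switch on in the intestine, was outside the list and had 35.0, 62.4 and 89.1 CPM in cows 1, 2 and 3 in IGFBP5-high and 14.2, 23.5 and 27.3 CPM in GSTA1-high cells (log2 fold change 1.47, SE 0.21, edgeR adjusted p = 6.4e-07).

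SLC16A1, which encodes the monocarboxylate transporter MCT1 that carries short-chain fatty acids and ketone bodies across the membrane of rumen cells, was higher in IGFBP5-high cells in every cow. It had 1166, 1009 and 1247 CPM in cows 1, 2 and 3 against 559, 457 and 613 CPM in GSTA1-high cells, so that the means of 1141 ± 121 and 543 ± 79.3 CPM (SD, n = 3 cows) lay well apart (log2 fold change 1.08, SE 0.099, edgeR adjusted p = 1.4e-11). BSG, the chaperone of MCT1, had 2328, 2927 and 2635 CPM against 1874, 2371 and 2306 CPM and missed the threshold (log2 fold change 0.27, SE 0.091, edgeR adjusted p = 0.0595). SLC4A9, an anion exchanger, had 38.9, 37.5 and 40.8 CPM against 21.3, 18.8 and 24.8 CPM (log2 fold change 0.89, SE 0.22, edgeR adjusted p = 0.0052), which did not pass without cow 2 (0.81). The third gene called of the 8 tested in the list of volatile fatty acid and anion transport, SLC16A9, was higher in 2 of 3 cows and was lost without cow 1 (0.97) or cow 2 (0.85), while without cow 3 it reached 1.77. Over the list, the sum was 36.6, 37.5 and 42.7 UMIs per 10000 in cows 1, 2 and 3 in IGFBP5-high and 25.5, 27.8 and 30.2 in GSTA1-high cells. BSG, which was not called, and SLC16A1 made up most of it.

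The lists of fatty acid activation and oxidation had calls both ways, to be read beside the 3.48% higher and 3.81% lower over all genes. In the list of volatile fatty acid activation and ketone bodies 1 of 12 genes was higher and 1 lower in IGFBP5-high cells, with a median log2 fold change of 0.049. ACAT1, the thiolase at the start of ketone body synthesis, had 432, 328 and 319 CPM against 297, 220.0 and 236 CPM (log2 fold change 0.53, SE 0.11, edgeR adjusted p = 9.1e-04). MCEE, of the propionate route, went the other way (-0.55) and was lost without cow 1 (-0.57) or cow 3 (-0.41). Of 19 genes of fatty acid oxidation, PLIN2, which coats lipid droplets, was higher in IGFBP5-high cells (149, 223 and 119 CPM against 71.0, 94.2 and 78.2 CPM; log2 fold change 1.05, SE 0.14, edgeR adjusted p = 2.6e-07), and so was CPT1A, which admits fatty acids to mitochondria (0.82, lost without cow 1 at 0.76). FABP5, the epidermal fatty acid binding protein, was lower, at 2405, 3046 and 3288 CPM against 3350.3, 4335 and 5231 CPM (log2 fold change -0.55, SE 0.09, edgeR adjusted p = 1.6e-05). By edgeR 0 of 17 citric acid cycle genes were called (0 at an unadjusted p under 0.05; 0 without any 1 cow), and their log2 fold changes had a median of -0.11. Glycolysis had 1 of 14 called (ENO1, 0.46, lost without cow 1 at 0.39), carbonic anhydrases 1 of 2 (CA12, 0.84) and amino acid transporters 1 of 5 (SLC1A4, 0.67), each higher in IGFBP5-high cells. The calls of CA12 and SLC1A4 were lost among cells of 8000 to 20000 UMIs.

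**Figure D3:**
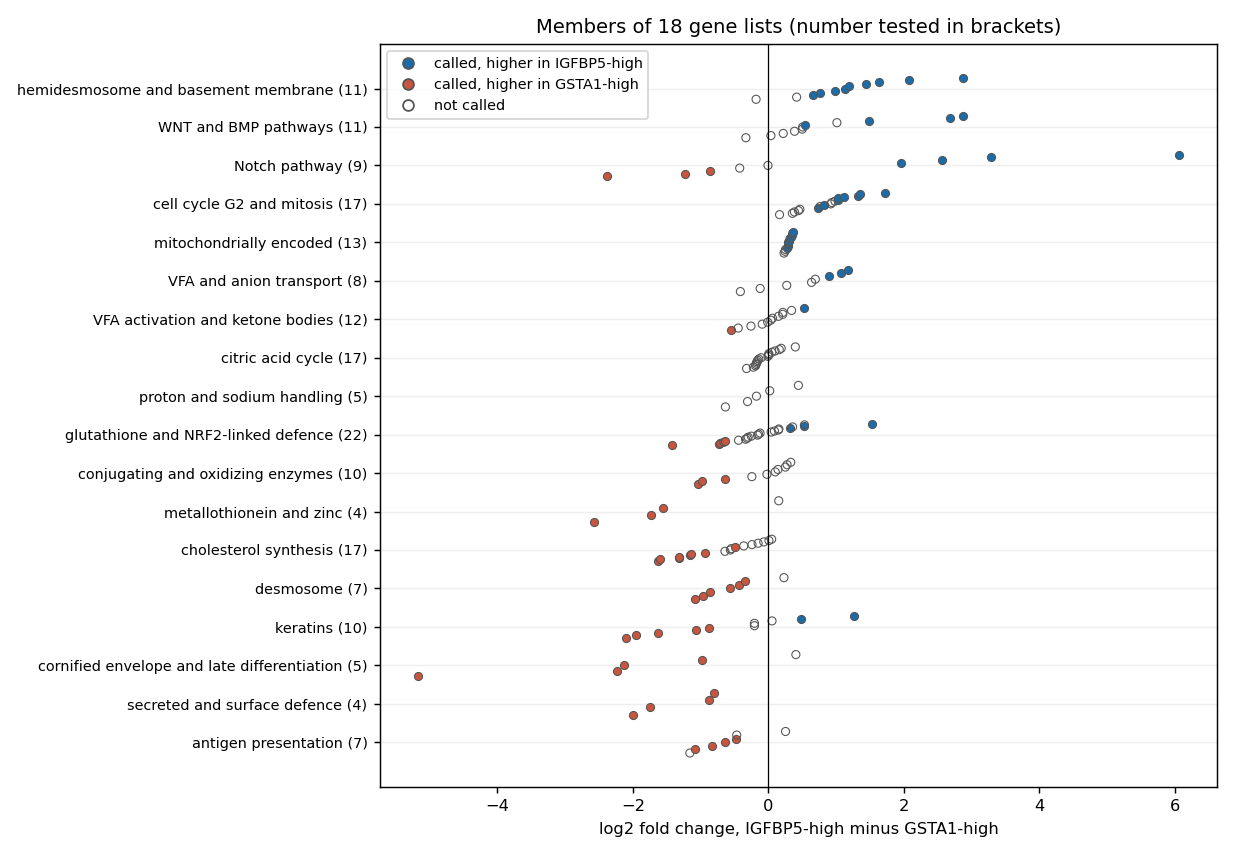
Every dot is 1 tested gene of the list named on the y axis, placed by its log2 fold change (IGFBP5-high minus GSTA1-high, x axis), filled blue or red where it was called higher in IGFBP5-high or in GSTA1-high cells and open otherwise. In the hemidesmosome list 9 of 11 dots are blue, in the desmosome list 6 of 7 and in the secreted defence list 4 of 4 are red, and the 17 citric acid cycle dots are open. DST, 1 of the 9, had sums under the filter limit on both sides, so that number is not read as a result. The dots farthest out on either side, LFNG in the Notch and TGM1 in the cornified envelope list, rest on 1 and 2 UMIs on their lower side, and their place depends on the prior count of the fit.

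Mitotic genes were higher in IGFBP5-high cells, with 8 of 17 tested members of the G2 and mitosis list called and 0 lower, and the number of calls depended on the cow and on the scale of the rule. TOP2A (ENSBTAG00000019262), the topoisomerase of dividing cells, had 123, 38.9 and 159.6 CPM in cows 1, 2 and 3 in IGFBP5-high and 31.9, 23.5 and 29.7 CPM in GSTA1-high cells (log2 fold change 1.72, SE 0.21, edgeR adjusted p = 2.3e-08). CENPF (ENSBTAG00000024449), a kinetochore protein, had 209, 129.7 and 197 CPM against 98.2, 37.7 and 83.0 CPM (log2 fold change 1.36, SE 0.15, edgeR adjusted p = 1.0e-09). UBE2C (ENSBTAG00000016746), which marks cyclins for breakdown, had 38.9, 31.2 and 145 CPM against 20.1, 24.2 and 22.4 CPM, and cow 3 stood far above the others (log2 fold change 1.32, SE 0.26, edgeR adjusted p = 4.2e-04). It was 0.60 and not called without cow 3, 1.98 without cow 2, and turned to -0.43 when the sides were set by UMIs per 10000. The number of calls on the list fell to 3 without cow 3 and to 0 with the per-10000 rule (12 tested). MKI67, the usual marker of division, had 79.2, 37.9 and 85.4 CPM against 40.2, 18.2 and 32.1 CPM (1.11) and turned to -0.28 under that rule. In S phase 2 of 15 genes were called (PCNA, 0.65, and GINS2, 1.16), with 0 left without cow 2 (PCNA 0.66, GINS2 1.30). Of the cyclins, CCND2 was higher in IGFBP5-high cells (41.0, 39.9 and 59.4 CPM against 21.3, 25.6 and 26.7 CPM, lost without cow 1 at 0.85). CCND1 (ENSBTAG00000017514), cyclin D1, had 16.1, 18.7 and 3.71 CPM in IGFBP5-high and 79.2, 94.2 and 89.1 CPM in GSTA1-high cells. It is given as a description, since the IGFBP5-high sum of cow 3 lay under the filter limit.

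Of the 14 genes with the largest differences towards IGFBP5-high cells among those with at least 50 CPM, 3 remain. FPGS (ENSBTAG00000008994), which keeps folates inside the cell, had 90.3, 76.4 and 66.8 CPM against 39.0, 17.5 and 29.7 CPM (log2 fold change 1.54, SE 0.19, edgeR adjusted p = 4.5e-08). CLU (ENSBTAG00000005574), the secreted chaperone clusterin, had 69.6, 25.5 and 81.7 CPM against 28.4, 12.1 and 18.2 CPM, higher in each cow although the ranges met (log2 fold change 1.47, SE 0.23, edgeR adjusted p = 5.5e-06). NQO2 (ENSBTAG00000000786), a quinone reductase, had 111, 126 and 59.4 CPM against 35.5, 42.4 and 47.9 CPM (log2 fold change 1.34, SE 0.17, edgeR adjusted p = 1.2e-07).

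Among called genes with at least 50 CPM on the higher side and 1 direction in all cows, the largest difference towards GSTA1-high cells was that of WFDC18 (ENSBTAG00000039504), a small secreted protein with a WAP domain. It had 429, 629 and 1021 CPM in cows 1, 2 and 3 in GSTA1-high and 13.6, 15.9 and 104 CPM in IGFBP5-high cells (log2 fold change -4.70, SE 0.18, edgeR adjusted p = 4.9e-24). LY6G6E (ENSBTAG00000000582), of the Ly6 family of surface proteins, had 55.6, 37.0 and 144 CPM against 2.50, 2.88 and 7.42 CPM, given as a description, since its IGFBP5-high sums were too low to pass the filter on their own. CXCL14 (ENSBTAG00000006694), a chemokine of healthy epithelia, had 81.6, 78.7 and 173 CPM against 14.3, 13.0 and 7.42 CPM (log2 fold change -2.73, SE 0.20, edgeR adjusted p = 2.8e-14). The levels of these genes did not overlap between the sides. BST1 (ENSBTAG00000006156), a surface enzyme that cleaves NAD, had 61.5, 62.6 and 42.4 CPM in GSTA1-high cells and 9.28, 11.5 and 0 CPM in IGFBP5-high cells. It is likewise a description, since its IGFBP5-high sums did not all reach the filter limit, those of cow 3 holding 0. KCNK7 (ENSBTAG00000010802), of a family of potassium channels, had 50.9, 84.8 and 86.1 CPM against 7.85, 18.3 and 22.3 CPM (-2.33), and PHGR1 (ENSBTAG00000049093) 199.9, 29.6 and 99.4 CPM against 41.0, 13.5 and 22.3 CPM (-2.00).

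Secreted and surface defence genes were higher in GSTA1-high cells, 4 of 4 tested (of 17 measured), and stayed so without each cow in turn. S100A9 (ENSBTAG00000006505), a chain of the antimicrobial calprotectin, had 317, 328 and 1076 CPM in cows 1, 2 and 3 in GSTA1-high and 76.0, 56.7 and 416 CPM in IGFBP5-high cells (log2 fold change -1.99, SE 0.14, edgeR adjusted p = 4.0e-15). Cow 3 was again highest on both sides, and the ranges overlapped. Its partner S100A8 had a log2 fold change of -0.80 and the related S100A12 one of -0.88. BPIFA2C, a secreted lipid-binding protein of the salivary type, had 1057, 996 and 2031 CPM against 542, 191 and 501 CPM (log2 fold change -1.75, SE 0.14, edgeR adjusted p = 2.4e-13). The list summed to 106, 119 and 187 UMIs per 10000 in cows 1, 2 and 3 in GSTA1-high and 61.3, 56.4 and 96.5 in IGFBP5-high cells, with cow 3 highest on both sides. GJA1-positive cells high for neither gene had 114, 105 and 218, so such levels were not particular to GSTA1-high cells. Protease inhibitors gave 4 of 11 genes higher in GSTA1-high cells (2 without cow 1), a number not read as a result on the list, since SERPINB2 passed the filter through that side alone. CSTB, which blocks cathepsins and whose symbol belongs to more than 1 identifier in the files, had 139.5, 111 and 296 CPM against 31.8, 11.5 and 74.2 CPM (log2 fold change -2.43, SE 0.18, edgeR adjusted p = 9.9e-15), and CST3 (-0.45) was lost without cow 1 (-0.41) or cow 3 (-0.42).

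Keratins went both ways. KRT6A (ENSBTAG00000039425), a keratin of suprabasal and injured epithelium, had 1568, 1813 and 4772 CPM in cows 1, 2 and 3 in GSTA1-high and 328, 449 and 1599.7 CPM in IGFBP5-high cells (log2 fold change -1.96, SE 0.11, edgeR adjusted p = 1.3e-18). The ranges overlapped, since cow 3 was highest on both sides. KRT17, another keratin of stressed epithelium, had 4615, 4917 and 12293 CPM against 1532, 1676 and 3663 CPM (log2 fold change -1.63, SE 0.091, edgeR adjusted p = 2.9e-18). KRT6B (ENSBTAG00000038033) was far higher in cow 3 than in cow 1 on both sides, with 14.2, 211 and 1608 CPM against 1.07, 24.0 and 624 CPM. Its log2 fold change of -2.10 became -1.51 without cow 2 and -3.17 without cow 3. These values are a description, since the IGFBP5-high sum of cow 1 lay under the filter limit. KRT6A and KRT6B are close copies, and reads of 3′ ends could be shared between them. Of the 10 keratins tested, 2 were higher in IGFBP5-high cells (KRT15 and KRT19) and 5 in GSTA1-high cells, KRT14 (-0.88), a keratin of basal cells, among them. As KRT6B is 1 of the 5, that number is not read as a result on the list.

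Desmosomal genes were higher in GSTA1-high cells. In the desmosome list 6 of 7 were called: PKP1, a desmosomal plaque protein, had 82.8, 82.1 and 124 CPM in GSTA1-high and 38.5, 41.8 and 48.3 CPM in IGFBP5-high cells (log2 fold change -1.08, SE 0.16, edgeR adjusted p = 2.1e-06), JUP (plakoglobin) 453, 384 and 379 CPM against 250.2, 220.5 and 193 CPM (log2 fold change -0.86, SE 0.11, edgeR adjusted p = 1.4e-07) and the desmosomal cadherin DSG3 417, 372 and 363 CPM against 266, 269 and 241 CPM (-0.56). Their levels did not overlap. Among cells of 8000 to 20000 UMIs 3 of 7 were called (median log2 fold change -0.47, against -0.56 over all cells), and without cow 1 also 3 of 7, DSC2 (-0.96 in all cows, -0.93 then) being among those lost. Of 8 tight junction genes 2 were called, and without cow 2 neither: CLDN1, -1.40 in all cows, was then -1.35 and CLDN4, -0.48 in all cows, turned to 0.052. Of 18 cornified envelope and late differentiation genes measured 5 passed the filter and 4 of these were called, a number that is not read as a result on the list, since TGM1 passed through the GSTA1-high side alone. TGM3, a transglutaminase that cross-links the envelope, had 39.0, 47.8 and 58.2 CPM against 10.3, 6.73 and 18.6 CPM (log2 fold change -2.24, SE 0.25, edgeR adjusted p = 3.2e-09). TGM1, the other such enzyme, had 96 UMIs over the GSTA1-high and 2 over the IGFBP5-high cells, a ratio of 63.0 (95% exact interval 17.0 to 527 for counting error). TMEM79, a lamellar granule protein, had 218, 153 and 206 CPM against 110.3, 86.5 and 77.9 CPM (-0.99).

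Of 12 keratinocyte transcription factors tested, 1 was higher in IGFBP5-high cells (TP63) and 4 in GSTA1-high cells. Of these, GRHL1 and ZNF750 passed the filter through the GSTA1-high side alone, so that the number is not read as a result on the list. ZNF750 (ENSBTAG00000015406), which drives late differentiation of keratinocytes, had 57.9, 71.3 and 37.6 CPM in cows 1, 2 and 3 in GSTA1-high and 14.6, 17.3 and 3.71 CPM in IGFBP5-high cells. These levels are a description, since the IGFBP5-high sum of cow 3 lay under the filter limit. GRHL1, a regulator of desmosomal genes, had 17.7, 19.5 and 12.7 CPM against 5.00, 4.32 and 0 CPM, given as a description only. KLF4, a factor of barrier formation, was -0.54, but higher in the IGFBP5-high cells of 1 cow and lost without cow 2 (-0.18).

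Metallothioneins, small proteins that bind zinc and copper, were lower in IGFBP5-high cells, and MT2A and MT1E differed little between the GSTA1-high cells of the 3 cows. MT2A had 3498, 3476 and 3534 CPM in cows 1, 2 and 3 in GSTA1-high and 1222, 1492 and 508 CPM in IGFBP5-high cells (log2 fold change -1.74, SE 0.14, edgeR adjusted p = 1.3e-13). MT1E had 319, 291 and 313 CPM against 102, 134 and 44.5 CPM (log2 fold change -1.55, SE 0.14, edgeR adjusted p = 2.2e-11), and a second locus of that name, MT1E.1, had 859.8, 1059 and 704 CPM against 237, 432 and 152 CPM (-1.68), copies between which reads may be divided. MT3 was -2.58. The list summed to 39.0, 36.5 and 39.1 UMIs per 10000 in cows 1, 2 and 3 in GSTA1-high and 13.7, 15.4 and 6.07 in IGFBP5-high cells, and 3 of 4 tested genes were called, also without the cow in the model and without cow 1 or cow 2. Without cow 3, of 5 tested genes 3 were lower and 1 higher in IGFBP5-high cells. Cholesterol synthesis gave 8 of 17 enzymes higher in GSTA1-high cells and 0 in IGFBP5-high cells. HMGCS1, at the entry to the pathway, had 60.3, 65.2 and 57.0 CPM against 20.0, 23.1 and 7.42 CPM (log2 fold change -1.63, SE 0.20, edgeR adjusted p = 3.2e-08), and CYP51A1, the lanosterol demethylase, 29.6, 47.8 and 53.9 CPM against 15.0, 10.6 and 18.6 CPM (log2 fold change -1.59, SE 0.24, edgeR adjusted p = 4.0e-06). The others called were MSMO1 (-1.31), FDPS (-1.16), SQLE, NSDHL, IDI1 and DHCR7, and 6, 6 and 7 enzymes of the list were called without cows 1, 2 and 3.

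Detoxifying enzymes other than GSTA1 did not move as 1 group. In the glutathione list 3 of 22 were higher in GSTA1-high cells and 3 in IGFBP5-high cells, and the median log2 fold change was -0.15. MGST1 and MGST3, membrane-bound glutathione transferases, had 753, 975 and 846 CPM and 3136, 4052 and 3414 CPM in GSTA1-high cells against 430.0, 559 and 586 CPM and 1881, 2838 and 2168 CPM in IGFBP5-high cells (-0.73 and -0.63, edgeR adjusted p = 6.8e-07 and 1.3e-06). GCLC, the catalytic subunit of the first step of glutathione synthesis, was -1.43 and lost without cow 1 (-1.16). GSTP1, GPX1 and GCLM were higher in IGFBP5-high cells (1.53, 0.32 and 0.53), and without cow 3 0 of these were called (GSTP1 0.76). GSTA4, the only other alpha-class transferase tested, had 28.9, 25.9 and 44.5 CPM against 26.0, 33.6 and 48.5 CPM (log2 fold change -0.14, SE 0.21, edgeR adjusted p = 0.802). Since GSTA1 has near-identical copies, its own counts are uncertain where reads could be split. Of 10 conjugating and oxidizing enzymes 3 were higher in GSTA1-high cells (EPHX1, -0.64, CYP2B6, -1.03, and CYP2C18, -0.98). The calls of CYP2B6 (-0.59) and CYP2C18 (-0.96) were lost without cow 1 and that of EPHX1 (-0.55) without cow 2, while CYP2B6 was -1.68 without cow 2.

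GJB2 (ENSBTAG00000017425), connexin 26, was the 1 connexin called, GJA1 itself not being tested. It had 108, 78.0 and 255 CPM in cows 1, 2 and 3 in GSTA1-high and 8.57, 4.80 and 119 CPM in IGFBP5-high cells, so that the IGFBP5-high cells of cow 3 reached the GSTA1-high level of the other cows. These levels are a description and the call is not read as a result, since the IGFBP5-high sum of cow 2 lay under the filter limit. Only 2 of the 9 connexins and pannexins measured besides GJA1 passed the filter on low counts. ATP6V1B1 (ENSBTAG00000010620), a subunit of the proton-pumping V-ATPase, had 153, 63.9 and 27.3 CPM against 37.8, 13.5 and 0 CPM. It was the 1 call among 13 V-ATPase subunits. As its IGFBP5-high sums did not all reach the filter limit, its levels are a description and the number is not read as a result on the list. In proton and sodium handling 0 of 5 genes were called by edgeR (2 at an unadjusted p under 0.05). Retinoid genes gave 3 higher in IGFBP5-high cells, among them DHRS3, a retinal reductase (37.8, 50.0 and 40.8 CPM against 11.8, 18.8 and 27.3 CPM; 1.27), with RXRA (0.77) lost without cow 2 (0.58) and RARRES2 (0.61) without any 1 of the cows (0.61, 0.54 and 1.01), and 1 lower, the retinol binder RBP2 (-0.97).

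Some immediate-early and antigen presentation genes were higher in GSTA1-high cells, with calls that depended on the cow. Of 21 immediate-early and stress genes 6 were called, and 0 without cow 2. EGR1 had 186, 489.7 and 20.0 CPM in GSTA1-high and 152, 283 and 18.6 CPM in IGFBP5-high cells (log2 fold change -0.56, SE 0.14, edgeR adjusted p = 0.0045; -0.26 without cow 2), DUSP1 422, 714 and 141 CPM against 310.5, 413 and 96.5 CPM (-0.46 without cow 2), and GADD45A went from -0.58 to -0.067. NR4A1 was -0.61 and lost without cow 1 (-0.53) or cow 2 (-0.71). Cow 2 was highest for EGR1 and DUSP1 on both sides and cow 3 lowest. For NF-kB targets 2 of 6 were called, NFKBIA (-0.72, lost without cow 2 at -0.30) and IL1RN (-0.76, lost without cow 1 at -0.61), but without cow 1 4 of 7 and without cow 3 4 of 8 were lower in IGFBP5-high cells. Antigen presentation had 4 of 7 called: BOLA, a class I heavy chain, had 167, 891 and 527 CPM against 107, 609.6 and 301 CPM (log2 fold change -0.64, SE 0.11, edgeR adjusted p = 5.0e-05), B2M, its light chain, 518, 834 and 1109.6 CPM against 328, 696 and 776 CPM (lost without cow 1 at -0.35), and TAP1 and TAP2 were each lost in at least 2 of the 3 settings that leave out a cow (TAP1 -1.24, -1.01 and -0.99; TAP2 -0.78 and -0.80 without cows 1 and 2). Of 7 EGF receptor family genes the growth factor AREG was called (-1.15), but at 8000 to 20000 UMIs per cell it was 0.10.

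Transcripts of the mitochondrial genome were higher in IGFBP5-high cells by a small, even step: 8 of 13 were called, with a median log2 fold change of 0.30, and COX1 had 63540.0, 51186 and 39383 CPM against 50345, 41977 and 29699 CPM (log2 fold change 0.34, SE 0.084, edgeR adjusted p = 0.0047). Without cow 1 or without cow 3, 0 of 13 were called (COX1 0.38 and 0.30). Nuclear genes of the respiratory chain did not follow, with 0 of 82 higher and 3 lower in IGFBP5-high cells, near the 3.81% lower over all genes. The 3, NDUFA4, ATP5IF1 and COX7A2, were lost without cow 1 (-0.34, -0.28 and -0.21). Of 82 ribosomal protein genes 0 were called by edgeR (11 at an unadjusted p under 0.05), but 14 were lower in IGFBP5-high cells without cow 2. Calls in the other lists are to be read beside the 3.48% higher and 3.81% lower over all genes. They were serine synthesis 1 of 11 (PSAT1, 1.43, lost without cow 3 at 1.18), YAP targets 0 of 3 (CCN1 -0.17, CRIM1 0.70), granule cell markers 1 of 4 (DLK2, which passed the filter through 1 side alone, so that the number is not read as a result; without cow 1, 1 higher and 2 lower of 5, and without cow 3, 1 and 1 of 5), urea and water channels 1 of 3 (AQP5, -0.51, lost without cow 1 at -0.13), calcium and magnesium handling 1 of 5 (CALML5, likewise low in IGFBP5-high cells and not read as a result) and tetraspanin-type proteins 2 of 8 (TM4SF1, -1.17, and CD9, -0.48, lost without cow 3 at -0.41). How far depth, mitochondrial share and dividing cells take part in the differences above was not tested beyond the values given. Without cells holding 3 or more UMIs of mitotic genes 151 and 195 genes were called, of which 138 and 183 were among the 232 and 254, and within 8000 to 20000 UMIs per cell 94 and 85, of which 87 and 81 were. In that depth range 4 of 7 basal markers and 2 of 8 G2 and mitosis genes were called higher in IGFBP5-high cells, and 5 of 16 cholesterol synthesis, 1 of 7 antigen presentation and 1 of 10 conjugating enzyme genes lower, while 1 glutathione and 1 retinoid gene were higher. The calls in S phase, among NF-kB targets and in the nuclear respiratory chain were lost by edgeR in that range. Of all named genes 34 lost their call there and 2 reversed, with CA12, SLC1A4, PSAT1, AQP5 and S100A9 among the 34. Fewer cells entered these sums.

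The remaining GJA1-positive cells show where cells with both or neither gene stand on these axes. For 196 of the 232 genes higher in IGFBP5-high cells, the mean level of cells high for both lay between the 2 sides, and for 153 it was nearer to the IGFBP5-high mean. Of the 254 genes higher in GSTA1-high cells, 231 were in between and 186 nearer to the IGFBP5-high mean. The mean of cells high for neither was nearer to the IGFBP5-high mean for 123 of the 232 and 149 of the 254 genes. In SLC16A1 cells high for both had 1031 CPM, against 1136 in IGFBP5-high and 545 in GSTA1-high cells (means of 3 cows, here scaled over the 4 classes together rather than over the 2 sides), and WFDC18 had 82.4, 44.0 and 696 CPM in the same order. The basal marker sum of cells high for both was 61.4, 67.4 and 75.0 UMIs per 10000 in cows 1, 2 and 3, and that of cells high for neither 48.6, 51.6 and 56.3. Mitotic genes did not follow this order: their sum was 1.02, 1.11 and 4.52 in cells high for both and 6.84, 8.86 and 6.13 in cells high for neither, against 7.64, 3.69 and 11.8 in IGFBP5-high and 3.97, 2.21 and 3.42 in GSTA1-high cells. Secreted and surface defence genes had 114, 105 and 218 in cells high for neither, near the 106, 119 and 187 of GSTA1-high cells. Cornified envelope genes had 3.49, 1.45 and 5.21 there, against 3.37, 2.16 and 3.94 in GSTA1-high cells. Cells high for neither were shallower than those of either side in cows 1 and 3 (medians of 10064, 17838 and 6758.5 UMIs), and 44 of the 193 had a mitochondrial share under 2%, against 5 of 310 IGFBP5-high and 13 of 236 GSTA1-high cells. These levels were not tested.

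**Figure D4:**
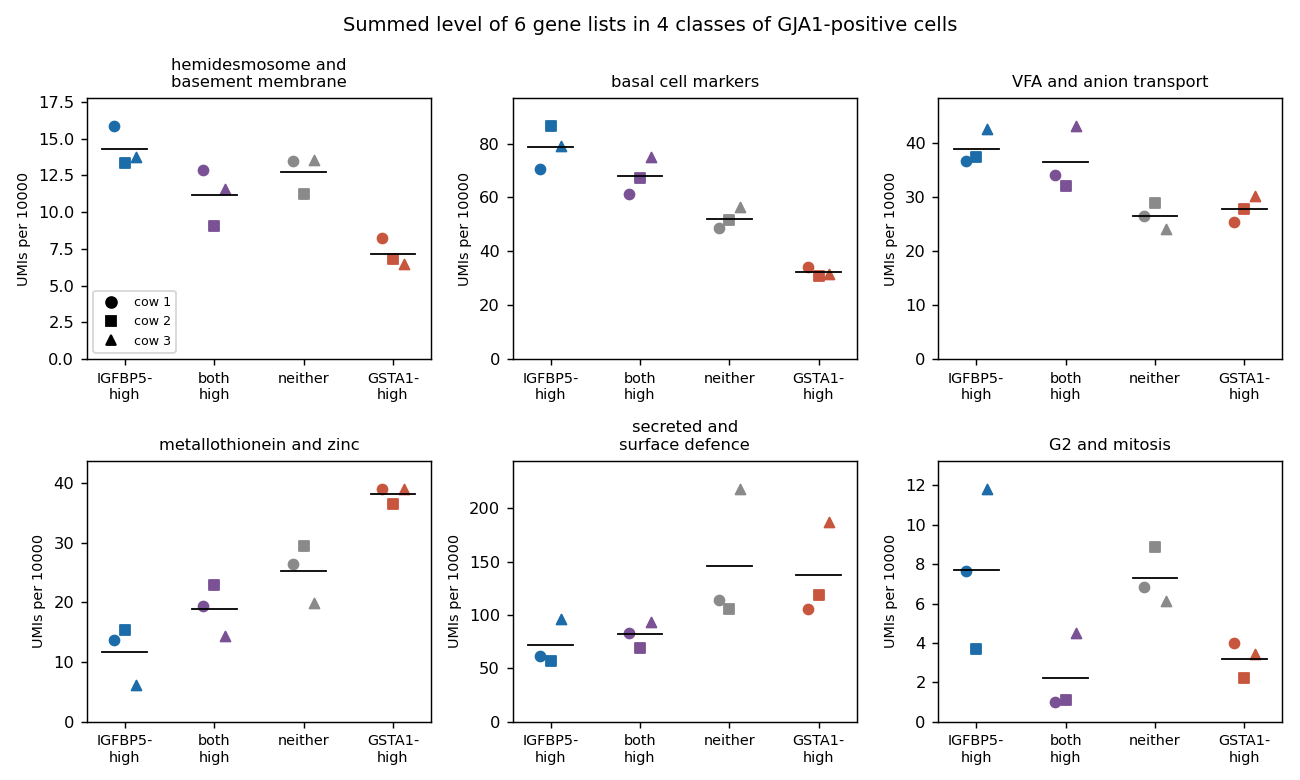
Summed levels of 6 gene lists in UMIs per 10000 (y axes from 0) are shown for 4 classes of GJA1-positive cells, with 1 marker per cow and a bar at the mean of 3 cows. Basal markers, in which KRT15 weighs most on either side, fall from IGFBP5-high through both-high and neither to GSTA1-high cells. Metallothioneins rise in that order, whereas the mean of the G2 and mitosis list is lowest in cells high for both.

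The same limits on IGFBP5 and GSTA1 were then applied to cells with 0 UMIs of GJA1, which the choice of GJA1-positive cells had not used. This gave 3398 IGFBP5-high and 401 GSTA1-high cells (27, 27 and 347 in cows 1, 2 and 3 of the latter), so the GSTA1-high side without GJA1 was mostly 1 cow. Of 7842 genes tested, 875 were higher (11.2%) and 924 lower (11.8%) in IGFBP5-high cells. Among the 232 genes higher in GJA1-positive IGFBP5-high cells, 181 had the same direction without GJA1, 116 were called the same way and 28 the opposite way. Among the 254 lower ones, 218 kept the direction, 152 were called the same way and 8 the opposite way. The difference between the 2 settings, tested as an interaction, was called for 439 of 7842 genes (5.6%). Without cow 3 that number was 120, without cow 1 227 and without cow 2 256. It was called for 64 of the 232 and 51 of the 254 genes. These were chosen for their change in the same GJA1-positive cells, so a larger share among them partly follows from the choice.

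SLC16A1, higher in IGFBP5-high cells with GJA1, had without it a log2 fold change of -0.085 (SE 0.096, edgeR adjusted p = 0.58), and the interaction was called (edgeR adjusted p = 1.4e-06). LAMB3 was higher in both settings, by 1.22 without GJA1, and the interaction was called (edgeR adjusted p = 9.7e-05). WFDC18 (-4.24), MT2A (-1.69) and HMGCS1 (-1.47) were lower by much the same amount as with GJA1, and their interactions were not called (edgeR adjusted p = 0.55, 0.99 and 0.92), which does not show that they were equal. In the mitotic list 18 of 20 genes were lower in IGFBP5-high cells without GJA1, MKI67 with a log2 fold change of -1.47, and the interaction was called for 19 of 20. In those GJA1-negative cells 37.0, 7.41 and 42.9% of the GSTA1-high and 15.6, 10.1 and 21.7% of the IGFBP5-high cells of cows 1, 2 and 3 had at least 3 UMIs of mitotic genes, so cow 2 ran the other way, and with GJA1 0 mitotic genes were called under the rule on UMIs per 10000. Of 21 immediate-early genes, 13 were higher in IGFBP5-high cells without GJA1 and the interaction was called for 12, EGR1 being 1.18 there, while with GJA1 the 6 called lower were all lost without cow 2. Ribosomal protein genes, of which 0 of 82 were called with GJA1, had 53 of 85 higher in IGFBP5-high cells without it, and 57 interactions were called.

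**Figure D5:**
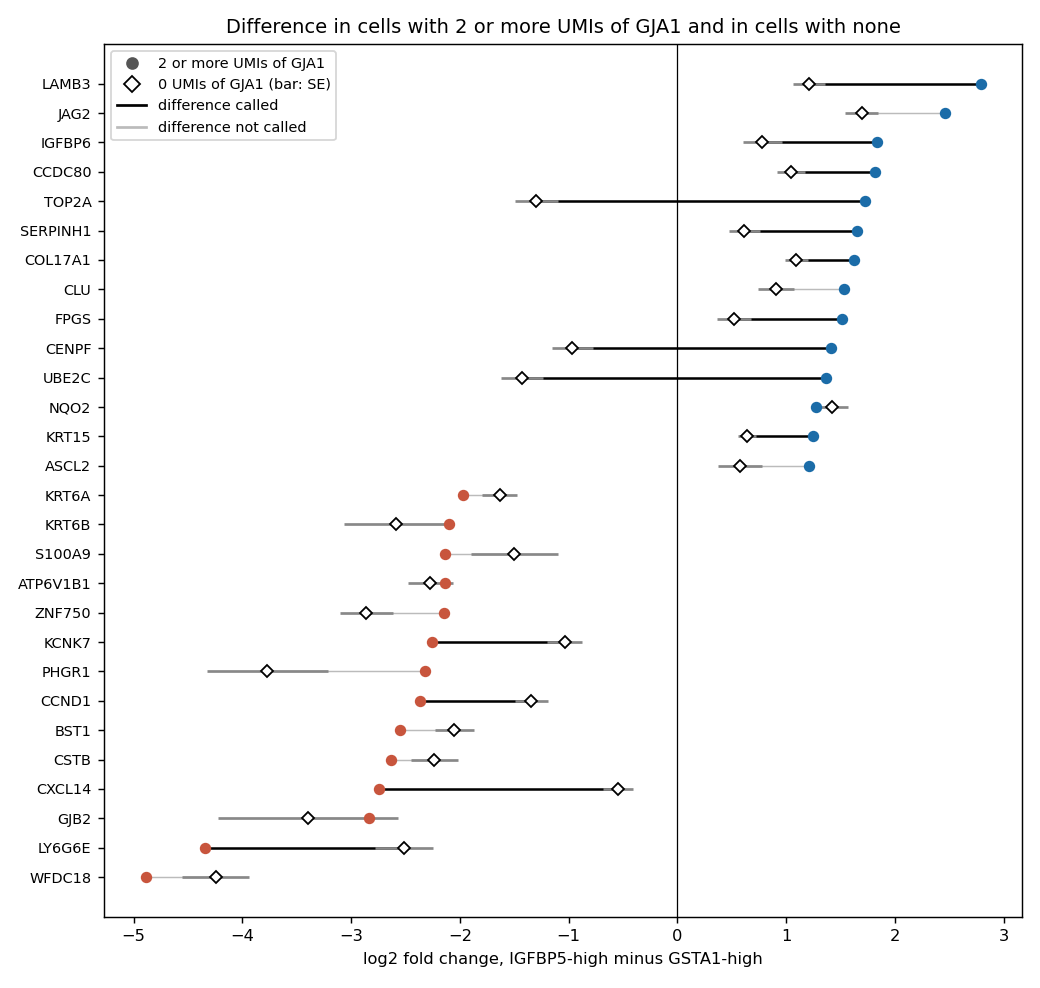
The log2 fold change (IGFBP5-high minus GSTA1-high, x axis) of the 28 genes with the largest changes among called genes of at least 50 CPM is shown in cells with 2 or more UMIs of GJA1 (filled) and with 0 UMIs (open, with the standard error), joined by a black line where the difference between both was called. TOP2A, CENPF and UBE2C change sign, and 14 of the 28 genes have a black line.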

How the data were processed

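Single-cell 3′ RNA sequencing of rumen epithelium was done for 3 cows with 1 library each. The deposited matrix holds UMI counts per gene and cell, which the authors made with Cell Ranger 3.1.0 (per the submitters' processing notes) on Ensembl release 99 of the cow genome. The authors filtered cells in Seurat by genes, UMIs and mitochondrial share, identified doublets with DoubletFinder and kept epithelial clusters, and no further doublet caller was run here. A second deposited table gives the natural log of 1 plus the UMIs per 10000. Its row order named the rows of the count matrix: 27270 rows are declared, 19533 hold values, and the natural log values recomputed from the counts matched the table within 1e-06. The barcode suffix was taken as the cow, and 0 columns lacked a sample.

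UMI counts were summed per cow and side (at least 10 cells per sum). The 6 sums were tested with edgeR 4.0.16 (limma 3.58.1, R 4.3.3) by the quasi-likelihood test, with TMM scaling, filterByExpr, the cow as a block and Benjamini-Hochberg adjustment, and calls needed an adjusted p under 0.05 and an absolute log2 fold change above 0.25. Fold changes are IGFBP5-high over GSTA1-high. A low gene could pass the filter through 1 side alone, and sums weight cells by depth. The common biological coefficient of variation was 0.0812. Both sides come from the same animals, and their deviations correlated by 0.487, 0.457 and 0.414 in cows 1, 2 and 3. The same model with an interaction compared cells with at least 2 and with 0 UMIs of GJA1. On simulated sums (6454 genes), 48% of 1.5-fold, 88% of 2-fold and 100% of 3-fold and 4-fold changes were recovered, and 0.0799% of unchanged genes were called. Changes were placed only in genes of higher mean level and were the same in every cow. Recovery for lower genes or changes that vary between cows was not tested.

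The cells, gene lists and tests were chosen with earlier results of these data known. Named were the 14 largest changes each way among called genes with 1 direction in 3 cows and at least 50 CPM on the higher side, with up to 4 called members per list by adjusted p, or the 2 most abundant where none was called (123 genes). Named outside this rule, after values were seen, were BSG, DHCR7, DLL1, GCLM, GPX1, GSTA4, HES1, HES2, IDI1, ITGB4, KRT14, KRT19, KRT5, MT1E.1, NSDHL, PLEC, SQLE. Alternatives were the model without the cow, DESeq2 1.42.0, no filter, upper-quartile scaling, each cow left out, 4 classes in 1 fit, thinning to 5000 UMIs, cells of 8000 to 20000 UMIs, a rule on UMIs per 10000, stricter sides, at least 4 UMIs of GJA1, removal of low-mitochondrial or mitotic cells and other fold thresholds. The removal of cells of either cell cycle list was added after seeing the data. Sums and counts were made with pandas 2.3.3 and scipy 1.17.1, plots with matplotlib 3.10.9 and arrays with numpy 2.4.6, all under Python 3.11.15. Intervals cover counting error only.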

Additional observations from a re-analysis of the deposited data

Results flagged for a closer look

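For 14 of the 28 genes with the largest changes among called genes of at least 50 CPM, the difference between IGFBP5-high and GSTA1-high cells was not the same in cells with at least 2 UMIs of GJA1 as in cells with 0, by the interaction term of edgeR's quasi-likelihood test. Over all genes tested the interaction was called for 439 of 7842 (5.6%), but the 28 were chosen for their change in the same GJA1-positive cells, so a larger difference with GJA1 partly follows from the choice. Values are the log2 fold change with GJA1 minus that without. TOP2A (3.02), UBE2C (2.80) and CENPF (2.38), genes of mitosis, had opposite signs in the 2 settings. With GJA1, UBE2C was -0.43 under the rule on UMIs per 10000 and -0.051 with stricter sides. Cells with at least 3 UMIs of the G2 and mitosis list were 37.0, 7.41 and 42.9% of the GSTA1-high and 15.6, 10.1 and 21.7% of the IGFBP5-high cells without GJA1 in cows 1, 2 and 3, so that cow 2 ran the other way. LAMB3 (1.57), COL17A1 (0.53), KRT15 (0.60), IGFBP6 (1.05), CCDC80 (0.77), SERPINH1 (1.04) and FPGS (0.99) were higher in IGFBP5-high cells in both and by more with GJA1. CXCL14 (-2.20) and KCNK7 (-1.22) were lower in both and by more with GJA1. LY6G6E (-1.83) and CCND1 (-1.03) are given as a description only, since their IGFBP5-high sums with GJA1 did not all reach the filter limit. The 14 hold both of them, so that number is not read as a result. Of the 401 GSTA1-high cells without GJA1, 347 came from cow 3.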

How the results depend on the processing

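Counts of genes higher and lower in IGFBP5-high cells, 232 and 254, became 21 and 31 with no replicate block (the cow left out of the model), 72 and 94 with DESeq2, 63 and 73 with cells thinned to 5000 UMIs, 94 and 85 at 8000 to 20000 UMIs per cell, 151 and 157 with stricter sides (cows 1 and 2 only, cow 3 having 7 cells) and 101 and 106 above a log2 fold change of 1. Higher genes were 148 with at least 4 UMIs of GJA1 and 151 without mitotic cells. Leaving out a cow gave 149 (without cow 2) to 178 higher and 168 (without cow 1) to 208 lower genes, and for the difference by GJA1 120 (without cow 3) to 256 in place of 439. The other alternatives, the added one included, stayed within 1.5 times these counts, but of the 276 and 265 genes called with the rule on UMIs per 10000 only 158 and 174 were among the 232 and 254, and the shares of cells on each side stayed within the spread between cows. The share of calls that were higher, 47.7%, ran from 40.4% with no replicate block and 41.9% unfiltered to 52.3% with upper-quartile scaling (248 and 226) and 52.5% at 8000 to 20000 UMIs. Of 123 named genes 26 kept direction and call in each of the 16 alternatives that gave them a value, and 8 reversed in at least 1. UBE2C was -0.43 with the rule on UMIs per 10000 and -0.051 with stricter sides, and MKI67 -0.28 and PCNA -0.59 under these in turn. IGF2R was -0.026 when thinned and CLDN4 lay between -0.83 and 0.052 with a cow left out (above 0 without cow 2). AREG was 0.10 at 8000 to 20000 UMIs. CCN1, not called, was 0.12 with no replicate block, 0.51 at 8000 to 20000 UMIs, 0.23 with stricter sides and 0.18 without cells of either cycle list. SUCLG1, not called and at 0.0062, was -0.026 with no replicate block, -0.0021 with DESeq2, -0.018 unfiltered, -0.043 to 0.056 with a cow left out, -0.012 in the fit of 4 classes, -0.089 thinned, -0.034 per 10000, -0.037 with stricter sides and -0.0030 without cells of either cycle list. The causes were not tested. The 22 IGFBP5-high cells of cow 3 limit what that cow can show, and the low counts of many genes leave changes under 2-fold partly undetected.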
